A study of Homo sapiens with 4 samples.

Results

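The comparison described here sets 1 array hybridised with RNA of HEK293 cells given MIF siRNA, titled 1#, against a second such array, titled 2#, and asks which genes and gene families separate them. These are 2 of the 4 arrays of the study, chosen by their titles and by no measured value, though with earlier results of these data known. HEK293 is a human embryonic kidney cell line. The 1# and 2# cells received MIF siRNA with a lipid transfection reagent, those of another array received control RNA, the remaining cells were left untreated, and all RNA was taken at 24 h. The study's design gives doses of 50 and 100 pmol/ml, and of the labels only that of 2# carries one, 50 pmol/ml. Whether 1# had the other dose, another siRNA sequence or a separate culture is not given in the labels. Each condition has 1 array, so no difference below has a replicate check or a test, and the difference between the control RNA and untreated arrays, which also differ in treatment, is the only other spread at hand.

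MIF, macrophage migration inhibitory factor, is a secreted cytokine that many cell types store and release without a classical signal peptide. It binds the surface receptor CD74, with CD44 as a co-receptor, and also the chemokine receptors CXCR2 and CXCR4, and its signals feed ERK and AKT kinases. A small interfering RNA guides the Argonaute complex to matching transcripts, and it can also lower other transcripts that pair with its seed. Its length and sequence are not given in the sources used here, so seed pairing was not searched.

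Signals below are linear bead intensities, quantile normalized over the 4 arrays, and differences are log2 of 1# minus log2 of 2# for the brightest probe of each gene. Of 18774 genes with a probe, 13755 had a mean signal above 75.6, the median of all probes, and were kept. A dim gene raised in 1 array could be kept through that array alone. The normalized MIF signal was 11614 in 1# and 17040.2 in 2#, against 22463 in the control RNA array and 21908 in untreated cells. Both siRNA arrays lay below both control arrays, and 1# held 68.2% of the 2# signal, a log2 difference of -0.55. That difference did not reach the 1.5-fold bound used below. In RNA of whole cultures, less of a transcript per cell and fewer cells holding it cannot be told apart. DDT, the other ligand of the family, had 8492 in 1# and 9975 in 2#, against 11234 with control RNA and 10748 in untreated cells. DDT stood in the same order as MIF with a smaller step, -0.23. Of 13 receptors and partners of MIF kept, TXNIP and CXCR4 were at least 1.5-fold higher in 1# and none was lower, where 1.21% of all kept genes were higher and 0.931% lower. CXCR4, which binds the chemokine CXCL12 as well as MIF, gave 869 in 1# and 551 in 2#, against 326 with control RNA and 375 in untreated cells. Its second probe differed by 0.99. CD44 was lower in 1#, at 1983 against 2743 in 2#, while the control RNA array had 2483 and untreated cells 2834, so 2# was at the level of the controls.

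At least 1.5-fold higher in 1# than in 2# were 167 genes, 1.21% of those kept, and at least 1.5-fold lower were 128, 0.931%. Both together were 295 genes, 2.14%. At 2-fold the counts were 25 higher, 0.182%, and 7 lower, 0.0509%, together 32 genes or 0.233%. The median difference of all kept genes was 0.00043 with an SD of 0.23 over genes. By the same 1.5-fold bound 1# was apart from control RNA in 1789 genes and from untreated cells in 1448, while 2# was apart from control RNA in 397 and from untreated cells in 248. The control RNA and untreated arrays were apart from each other in 13. When arrays were instead scaled by their medians, 259 genes were higher and 84 lower, so that 75.5% of the separating genes were higher in 1#, against 56.6% by quantile normalization. The last gene counted as higher was PPP3CB at 0.59 with ST3GAL6 just outside at 0.58, and the last counted as lower was IRAK1 at -0.59 with ESRRA just outside at -0.58.

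**Figure D1:**
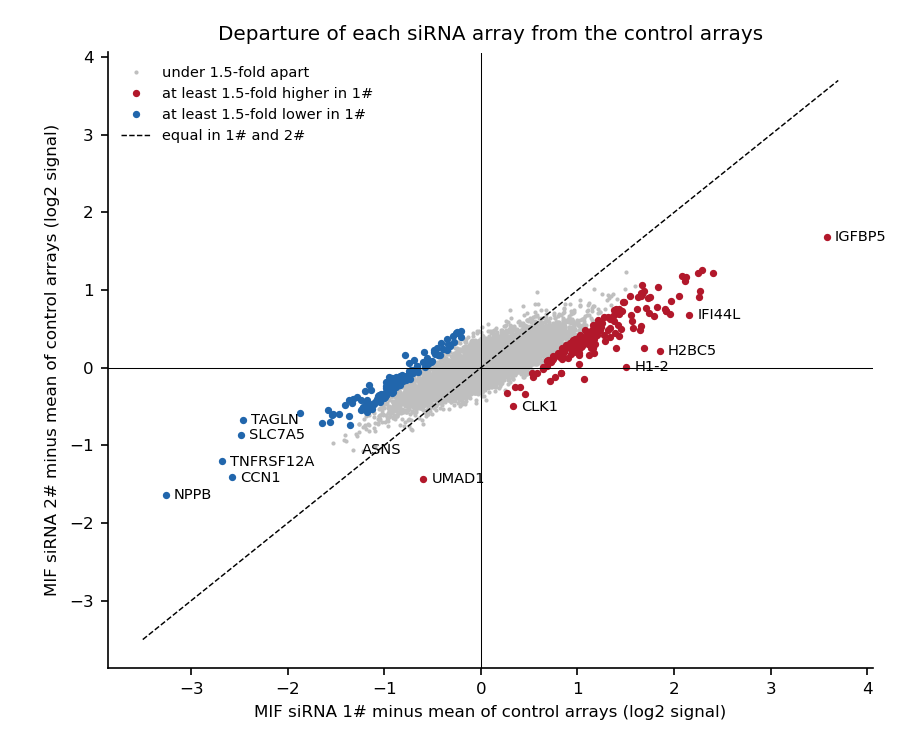
Each point is 1 of the 13755 kept genes. The x axis gives 1# minus the mean of the control RNA and untreated arrays and the y axis gives 2# minus that mean, both in log2 of normalized signal, with the 167 genes at least 1.5-fold higher in 1# in red, the 128 lower in blue and the line of equal values dashed. Most coloured points lie farther from the vertical zero line than from the horizontal one, so the value that departs from the controls is mostly that of 1#.

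In 253 of the 295 separating genes 1# was the array farther out: it lay outside the range spanned by the control RNA and untreated arrays, and 2# lay between it and that range or inside the range. The same held for 59.2% of all kept genes. This placing covered 154 of the 167 higher genes and 99 of the 128 lower ones. In 41 genes, 13.9%, the siRNA arrays lay on opposite sides of the control range, against 9.59% of all kept genes. Of these, 12 were higher in 1#, 7.19% of the higher genes, and 29 lower, 22.7% of the lower ones. In 1 gene 2# was the array farther out, against 23.8% of all kept genes. That gene was UMAD1, with 323 in 1# and 180.4 in 2#, against 506 in the control RNA array and 469 in untreated cells. Among the 154 higher genes 2# covered a median 0.33 of the log2 distance that 1# covered, with 8 of them inside the control range in 2#, 39 up to 0.25, 87 from 0.25 to 0.5 and 20 at 0.5 or more. Among the 99 lower genes the median was 0.27, with 10 inside the range, 37 up to 0.25, 49 from 0.25 to 0.5 and 3 at 0.5 or more. These genes were chosen for a gap of at least 1.5-fold between 1# and 2#, which removes ratios near 1, so the medians are partly set by that choice. Control values place the departure here but also enter this ratio, so genes near a control range carry large errors in it.

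The largest difference was that of IGFBP5, which encodes a secreted protein that binds insulin-like growth factors. Its signal was 2420.3 in 1# and 649 in 2#, against 185 in the control RNA array and 222 in untreated cells, a 3.73-fold difference between the siRNA arrays. The 1# array was highest, and 2# lay between it and the control pair. No other member of the IGF list was 1.5-fold apart, and the list median was 0.09 with IRS2, an adaptor of the insulin receptor, next at 0.49 and IGFBP6 lowest at -0.45. SELENOP, the plasma selenium transport protein, had 2791 in 1# and 1099 in 2#, against 547 with control RNA and 620.5 in untreated cells. CGA, the alpha subunit shared by the glycoprotein hormones, had 448 in 1# and 166 in 2#, against 127 with control RNA and 151 untreated. The first of these was graded over the siRNA arrays, while for CGA the 2# value stood close above the untreated one. The 20 highest genes also held SULF1, a sulfatase that trims heparan sulfate, the adhesion receptors ADGRF5 and ADGRV1, the lipid carrier APOD and the potassium channel KCNJ2. SULF1 gave 478 in 1# and 197 in 2#, against 87.7 with control RNA and 111 in untreated cells. ADGRV1 gave 2384 in 1# and 1067 in 2#, against 762 with control RNA and 766 untreated. PCK1, a key enzyme of gluconeogenesis, was dimmer, with 350.3 in 1# and 158 in 2#, against 88.4 with control RNA and 98.4 untreated, and showed the same order. Over these 20 genes 2# was at least 1.5-fold outside the control range in 12 and inside or beyond it on the other side in 2.

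The lowest gene relative to 2# was TAGLN, transgelin, an actin-binding protein of smooth muscle. It had 298 in 1# and 1026 in 2#, against 1621 in the control RNA array and 1661 in untreated cells, so the 1# signal was 29.0% of the 2# signal. NPPB, which encodes a natriuretic peptide, came down to 97.1 in 1#, close to the bound for kept genes, with 299 in 2#, against 937 with control RNA and 926 in untreated cells. Since background is part of the signal, folds at such dim values are too small. SLC7A5, the light chain of a large neutral amino acid exchanger, had 1106 in 1# and 3404 in 2#, against 6322 with control RNA and 6054 untreated. In TAGLN, NPPB and SLC7A5 1# was lowest, 2# next and both control arrays above them. TNFRSF12A, the receptor of the cytokine TWEAK, had 345 in 1# and 959 in 2#, against 2683 in the control RNA array and 1828 in untreated cells, where the control arrays themselves differed. OLR1, a scavenger receptor for oxidised lipoprotein, had 236 in 1# and 577 in 2#, against 839.7 with control RNA and 894 untreated. FKBP4, a co-chaperone of HSP90, had 1325 in 1# and 2473 in 2#, against 3091 with control RNA and 2988 untreated, a smaller departure of 2# than of 1#. WDR4, a subunit of a tRNA methyltransferase, differed by -0.87, and METTL1, its catalytic partner, which was looked up after the values were seen, differed by -0.66. Over the 20 lowest genes 2# was at least 1.5-fold outside the control range in 7.

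**Figure D2:**
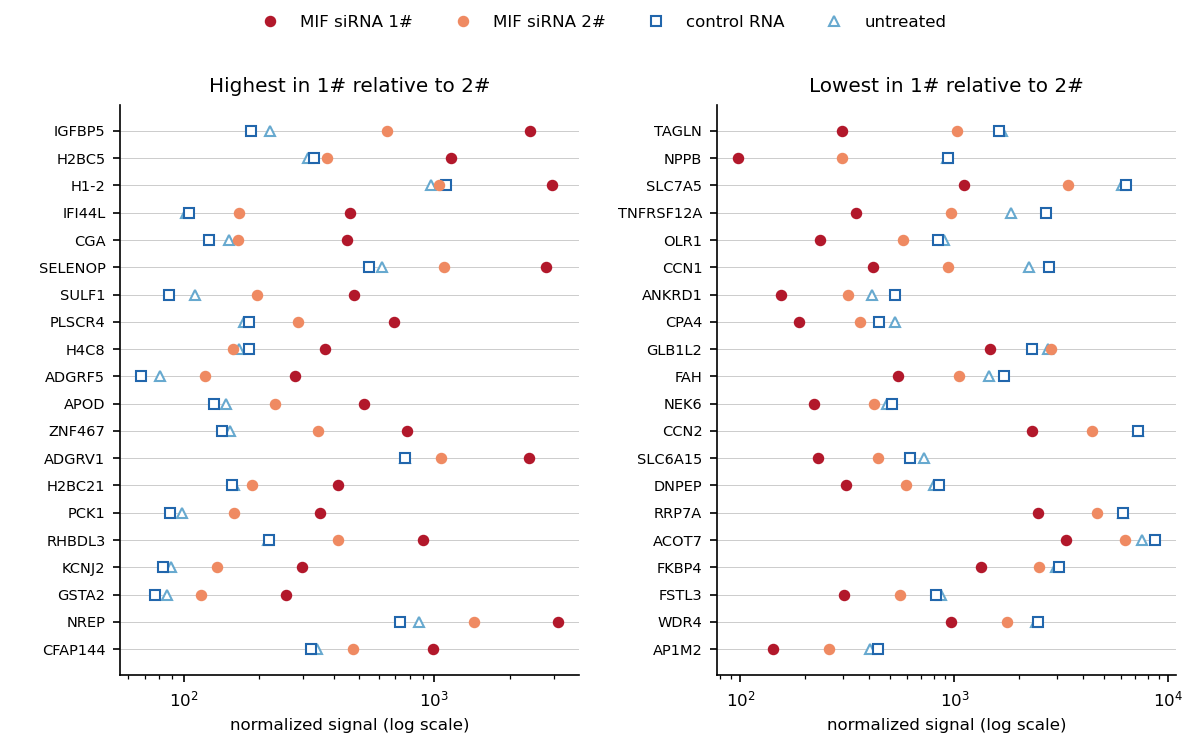
Normalized signal on a log axis in each of the 4 arrays for the 20 named genes highest in 1# relative to 2# (left) and the 20 lowest (right). Filled circles are MIF siRNA 1# and 2#, open squares control RNA and open triangles untreated cells, 1 array each. In most genes 2# lies between 1# and the control pair, and in H1-2, H4C8 and GLB1L2 it lies at the controls.

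A set of histone genes was higher in 1# while 2# stood near the control level. Histones package DNA, and most of their genes lie in clusters and are transcribed in S phase into mRNAs that end in a stem-loop in place of a poly(A) tail. Of 47 kept histone genes 12 were at least 1.5-fold higher in 1# and 1 was lower, against 1.21% and 0.931% of all genes, and 35 lay above 0. The median over all 47 was 0.17, beside 0.00043 over all kept genes. H2BC5, a core histone H2B gene, had 1163 in 1# and 374 in 2#, against 331 in the control RNA array and 314 in untreated cells. H1-2, a linker histone gene, had 2951 in 1# and 1046 in 2#, against 1119 with control RNA and 970.0 untreated. In these 1# alone stood high. H4C8 had 366 in 1# and 157 in 2#, against 183 with control RNA and 166 untreated, and the bright H2BC12 had 9453 in 1# and 5083 in 2#, against 5528 with control RNA and 5144 untreated. For both, 2# was marginally below the lower control array. The 12 genes differed from 2# by 1.61-fold to 3.11-fold. Relative to the control range, 1# stood a median 0.98 log2 units above it and 2# a median 0.04, with 2# nowhere 1.5-fold outside and in 6 of the 12 inside it or below it. The exception was H1-4, another linker histone gene, with 217 in 1# and 346 in 2#, against 259.5 with control RNA and 241 untreated, where 2# was high and 1# slightly low. H1-3 went the same way at -0.34.

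The copies of a histone type are near-identical in their coding sequence, so probes of paralogs may share signal and single members are uncertain. How fully the amplification copied mRNAs without a poly(A) tail was not tested. The histone signals may therefore not follow the level of all histone mRNA. A second kept probe of H2BC5 differed by 1.01 and one of H2BC12 by 1.17, while a dim one of H4C8 differed by -0.11. Lists of cell cycle genes had smaller medians. The replication and G1/S list had a median of 0.05 with 0 of 54 genes 1.5-fold apart either way, and the mitosis list one of 0.07 with 0 of 54. Over all kept genes 2.14% were that far apart, so counts of 0 in lists of this size are near that share. CDT1, the licensing factor, was highest of the first list at 0.42 and CDC25A, a phosphatase of the G1/S step, lowest at -0.46.

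**Figure D3:**
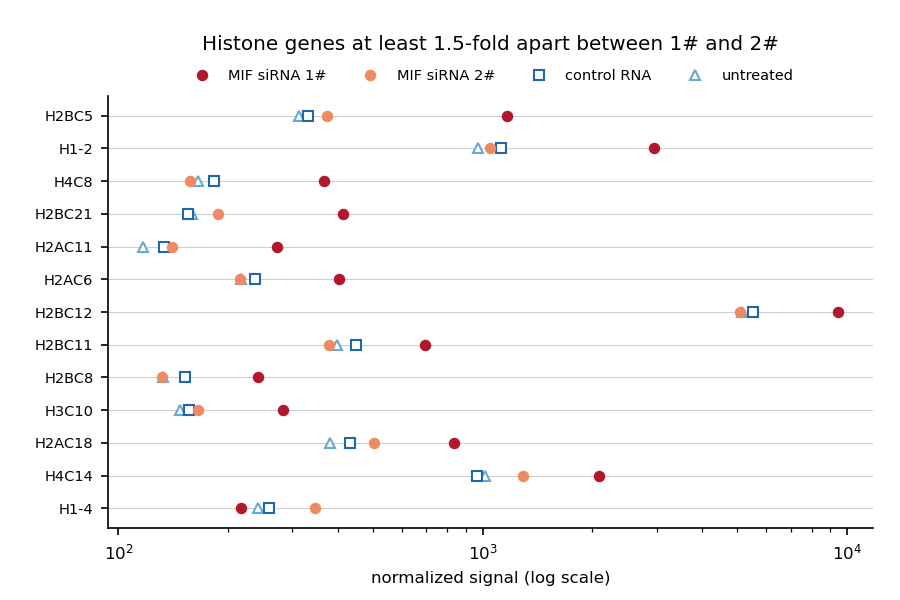
Normalized signal on a log axis of the 13 histone genes at least 1.5-fold apart between 1# and 2#, with filled circles for MIF siRNA 1# and 2#, an open square for control RNA and an open triangle for untreated cells, 1 array each. In the upper 12 rows 1# lies apart from the other 3 arrays, and in H1-4 2# is the highest.

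Promoters of 4 of the 5 H2B genes that were higher in 1# are shown because they share the octamer ATTTGCAT, the element of H2B promoters that POU factors bind. The bases are those before the annotated start, 5′ to 3′ on the gene's strand, from the RefSeq promoter table of GRCh38.p14, with the octamer in capitals. H2BC21 lies at chr1:149886683-149886782, H2BC12 at chr6:27146859-27146958, H2BC11 at chr6:27132796-27132895 and H2BC8 at chr6:26216689-26216788, all on the minus strand.
H2BC21: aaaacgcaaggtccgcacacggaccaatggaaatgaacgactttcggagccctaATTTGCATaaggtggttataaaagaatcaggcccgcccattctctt
H2BC12: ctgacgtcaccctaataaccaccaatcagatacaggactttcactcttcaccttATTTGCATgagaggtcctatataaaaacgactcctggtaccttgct
H2BC11: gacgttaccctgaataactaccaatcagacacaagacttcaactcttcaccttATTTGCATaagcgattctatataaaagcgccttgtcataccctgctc
H2BC8: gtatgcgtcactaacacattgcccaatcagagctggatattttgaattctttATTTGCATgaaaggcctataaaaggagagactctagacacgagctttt

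The octamer began 46 to 48 bases before the start in all 4. It was searched on both strands, as ATTTGCAT or ATGCAAAT, in the 250 bases before the start, and was counted whether or not another motif overlapped it. It stood in 6 of the 12 histone genes higher in 1# and in 11 of 32 other kept histone genes with a promoter in the table. Of all 27305 promoters 1.66% held it. Among H2B genes alone it stood in 4 of 5 that were higher and in 3 of 5 others, so it was found on both sides of the 1.5-fold bound.

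Most targets of the co-activator YAP with TEAD factors and of serum response factor, SRF, were lower in 1#. YAP with TEAD and SRF both read the state of the actin cytoskeleton and cell contacts, and their targets encode matricellular and contractile proteins. Of 39 kept genes of this list 7 were at least 1.5-fold lower in 1#, against 0.931% of all genes, 0 were higher, and 31 lay below 0 with a median of -0.18. The YAP and TEAD targets had a median of -0.16 over 19 genes and the SRF targets -0.20 over 20. CCN1, a matricellular protein, had 417 in 1# and 937 in 2#, against 2775 in the control RNA array and 2240.0 in untreated cells. CCN2, its relative, had 2308 in 1# and 4411 in 2#, against 7211 with control RNA and 7222 untreated. ANKRD1, an ankyrin-repeat protein of striated muscle, had 155 in 1# and 319 in 2#, against 525 with control RNA and 411 untreated. These 3 were graded, as TAGLN and NPPB were. TEAD4, a TEAD factor itself, had 1586 in 1# and 2543 in 2#, against 2744 with control RNA and 2464 untreated, and CNN2, a calponin, had 1155 in 1# and 1829 in 2#, against 1942 with control RNA and 1933 untreated. For TEAD4 and CNN2 the 2# value was within or near the control pair. Not all targets lay that way: AXL, a receptor kinase, differed by 0.55, and the smooth muscle actin gene ACTA2, with 6213 in 1# and 4871 in 2#, against 3166 with control RNA and 3361 untreated, by 0.35.

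The promoters of CCN2 and ANKRD1 are shown because the M-CAT element GGAATG, which TEAD factors bind, stands in them more than once. They come from the same table, at chr6:131951373-131951622 and chr10:90921088-90921337, both on the minus strand, 5′ to 3′ up to the start, with the element in capitals.
CCN2: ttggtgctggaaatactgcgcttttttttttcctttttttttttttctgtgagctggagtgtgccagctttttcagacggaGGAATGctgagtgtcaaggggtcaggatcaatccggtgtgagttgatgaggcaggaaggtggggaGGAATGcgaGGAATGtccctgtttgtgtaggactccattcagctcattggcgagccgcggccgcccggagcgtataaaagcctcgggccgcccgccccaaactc
ANKRD1: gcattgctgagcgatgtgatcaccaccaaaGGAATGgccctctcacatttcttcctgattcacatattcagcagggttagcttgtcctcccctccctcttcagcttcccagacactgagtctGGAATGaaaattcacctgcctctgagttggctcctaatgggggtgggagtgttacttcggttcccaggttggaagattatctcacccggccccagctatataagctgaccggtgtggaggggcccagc

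GGAATG or CATTCC was searched in the same 250 bases on both strands, overlaps with other motifs included, and 11.9% of all promoters held it. A promoter was at hand for 3 of the 7 lower genes, 2 of which held the element, and for 26 other kept genes of the list, 5 of which held it. These counts are too few to compare.

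Genes induced by FOXO factors and by starvation had the highest list median, 0.30 over 29 kept genes, with 8 at least 1.5-fold higher in 1# and 0 lower, against 1.21% and 0.931% of all genes. FOXO factors enter the nucleus when insulin and AKT signalling is low and switch on genes of growth arrest, autophagy and cell death. PIK3IP1, an inhibitor of PI3 kinase, had 611 in 1# and 346 in 2#, against 283 in the control RNA array and 262 in untreated cells. BMF, a proapoptotic BH3-only protein, had 641 in 1# and 368 in 2#, against 165 with control RNA and 195 untreated. BCL6, a transcriptional repressor, had 1006 in 1# and 605 in 2#, against 361 with control RNA and 370.2 untreated. All 3 stood highest in 1# with 2# in between. CDKN1B, the cyclin-dependent kinase inhibitor p27, had 3171 in 1# and 1930.4 in 2#, against 1219 with control RNA and 1286 untreated. TXNIP, an arrestin-like protein that restrains glucose uptake, had 12351 in 1# and 7643 in 2#, against 5306 with control RNA and 5787 untreated. Over the 8 higher genes 2# stood a median 0.70 log2 units above the control range and 1# 1.38, and in 6 of them 2# was itself 1.5-fold outside, unlike in the 12 histone genes. The FOXO factors themselves had a median of 0.23 over 3 genes. Against the list, GADD45B, a stress-induced gene, had 1697 in 1# and 2295 in 2#, against 4038 with control RNA and 4110.3 untreated. Members recur in other lists. BCL6 and TSC22D3 were also the only 1.5-fold higher genes of 15 kept in the glucocorticoid list, whose median was 0.13. CDKN1B was the only such gene of the cyclin D and CDK inhibitor list, and 1.21% of all genes were that much higher. TXNIP was also counted among the receptors and partners of MIF, and GADD45B among the YAP and SRF targets.

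**Figure D4:**
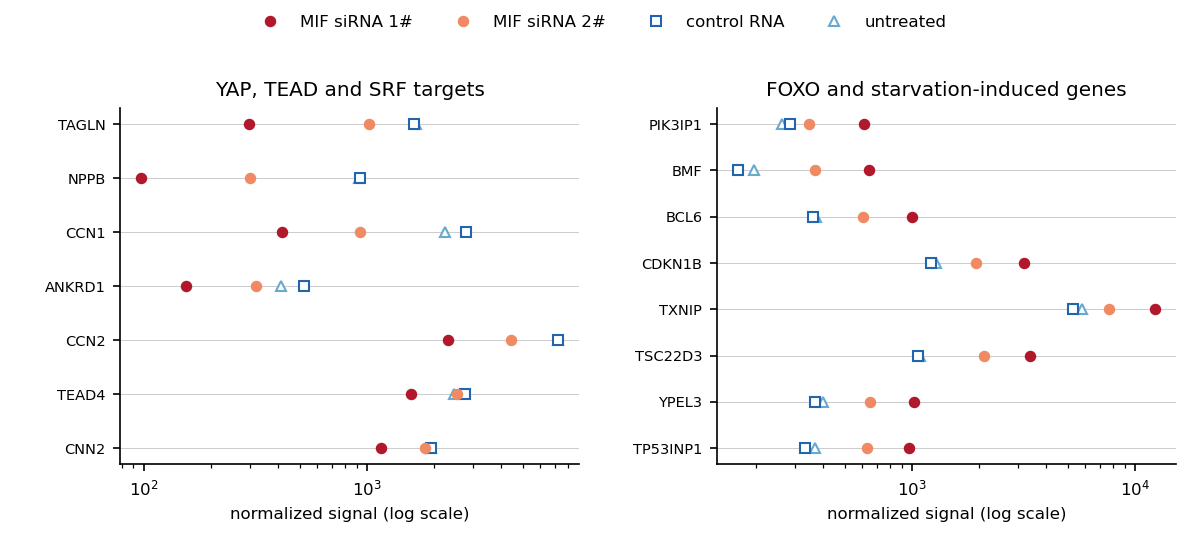
Normalized signal on a log axis of the 7 YAP, TEAD and SRF targets at least 1.5-fold lower in 1# (left) and the 8 FOXO and starvation-induced genes at least 1.5-fold higher in 1# (right), with filled circles for MIF siRNA 1# and 2#, open squares for control RNA and open triangles for untreated cells, 1 array each. On the right every gene has 1# highest and 2# next, and on the left every gene has 1# lowest.

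The cyclin D, CDK inhibitor and RB list held 1 gene at least 1.5-fold higher in 1#, CDKN1B, and 1 lower, CCND1, of 15 kept. The shares over all kept genes were 1.21% higher and 0.931% lower. The 7 inhibitors had a median of 0.24, the 3 genes of the RB family 0.20 and the 5 D cyclins and kinases -0.03. CDKN1A, the inhibitor p21, had 18692 in 1# and 13089.7 in 2#, against 10226 with control RNA and 10058 in untreated cells. CCND1, cyclin D1, had 3799 in 1# and 5819 in 2#, against 5374 with control RNA and 5001 untreated, a difference of -0.61. For CCND1 2# was above both control arrays. FOSL1, an AP-1 subunit, was the lowest of the immediate-early list, with 129 in 1# and 216 in 2#, against 314 with control RNA and 353 untreated, and MYC followed at -0.55. The median of that list, -0.04 over 35 genes, was near that of all genes.

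Genes that build ribosomes were lower in 1# by a small and widespread step. Ribosome biogenesis factors process and assemble ribosomal RNA in the nucleolus. Their median of -0.23 over 76 kept genes was the lowest of the 50 lists, with 65 below 0, but 3 were 1.5-fold lower, against 0.931% of all genes, and 0 higher. Set against control RNA, the list median was -0.47 in 1# and -0.25 in 2#. RRP7A, an rRNA processing factor, had 2456 in 1# and 4658 in 2#, against 6128 with control RNA and 6139 in untreated cells. NOC2L had 1409 in 1# and 2277 in 2#, against 2399 with control RNA and 2884 untreated. The subunits of RNA polymerases, some of which transcribe ribosomal RNA, had a median of -0.19 over 27 genes and the general transcription factors one of 0.00 over 38. Aminoacyl-tRNA synthetases, which charge tRNAs, had a median of -0.17 over 34 genes and 1 of them, VARS1, was 1.5-fold lower, against the same 0.931%. Cytosolic ribosomal proteins had a median of 0.01 over 68 genes. Mitochondrial ribosomal proteins had -0.12 over 77 and -0.19 over the 28 of the small subunit. MRPL4 had 248 in 1# and 389.9 in 2#, against 521 with control RNA and 487 untreated. For comparison, the 50 list medians of control RNA minus untreated ran from -0.09 to 0.08 with an SD of 0.04.

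Most glycolytic enzymes were lower in 1#, and set against control RNA the median of the 18 was -0.35 in 1# and 0.04 in 2#. The median of 1# minus 2# was -0.25, with 16 genes below 0, and 2 were at least 1.5-fold lower, PFKL and HK2, against 0.931% of all genes. PFKL, the liver type phosphofructokinase, had 863 in 1# and 1336 in 2#, against 1166 in the control RNA array and 1104 in untreated cells. HK2, a hexokinase, had 148 in 1# and 223 in 2#, against 256 with control RNA and 302 untreated. In PFKL 2# was above both control arrays and in HK2 below both. ENO2, an enolase, had 1134 in 1# and 1643 in 2#, against 1079 with control RNA and 1340.1 untreated, so here 2# was the array apart. The hypoxia targets of the same list had a median of 0.00 over 22 genes, and GAPDH, also counted among the reference genes, differed by -0.03. The median of sterol and fatty acid synthesis was -0.12 over 33 genes, with MVD, an enzyme of the mevalonate pathway, lowest at 269 in 1# and 426 in 2#, against 460.3 with control RNA and 484 untreated.

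Among the groups of the chaperone list only the HSP40 genes had a median above 0. The HSP90, HSP60 and small heat shock genes had a median of -0.28 over 13 genes, 11 of them below 0, led by FKBP4. The HSP70 and HSP110 genes had a median of -0.03 over 12 and the HSP40 genes one of 0.08 over 15. The CCT chaperonin genes had one of -0.20 over 8, 6 of them below 0, with 1# farther out in all 8. None of the HSP70, HSP110, HSP40 and CCT genes was 1.5-fold apart, against 2.14% of all kept genes. HSPA1B, a stress-induced HSP70, had 6322 in 1# and 8630.4 in 2#, against 15230.0 in the control RNA array and 18056 in untreated cells, and it has a near-identical copy. Genes of the endoplasmic reticulum arm of the unfolded protein response had a median of 0.10 over 21 genes, 16 of them above 0 and none 1.5-fold apart. Set against control RNA, the median of this arm was -0.03 in 1# and -0.19 in 2#, and against untreated cells -0.10 and -0.16. The 1# array was farther out in 9 of the 21 and 2# in 8, with 4 on opposite sides. HSPA5, the chaperone BiP of that compartment, had 1136 in 1# and 839 in 2#, against 996 with control RNA and 983 untreated. XBP1, a transcription factor of the unfolded protein response, had 2865 in 1# and 2098 in 2#, against 2542 with control RNA and 2618 untreated. In HSPA5 and XBP1 1# was above both control arrays and 2# below both. The amino acid arm under ATF4 had a median of -0.03 over 21 genes, and its bright member ASNS, asparagine synthetase, was low in both siRNA arrays, with 2394 in 1# and 2869 in 2#, against 6084 with control RNA and 5872 untreated. PYCR1, a proline synthesis enzyme, was the 1 gene of that arm at least 1.5-fold apart, at -0.65.

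Matrix genes separated the arrays in both directions. Of 41 kept collagen and laminin genes 5 were at least 1.5-fold higher in 1# and 1 was lower, against 1.21% and 0.931% of all genes. Of these 5, COL21A1 had 111 in 1# and 69.1 in 2#, against 62.6 with control RNA and 63.2 untreated. Only its 1# signal was above the bound for kept genes. COL4A5, a collagen of basement membranes, had 2306 in 1# and 1197 in 2#, against 852 with control RNA and 910.0 in untreated cells. COL3A1, a fibrillar collagen, had 257 in 1# and 134 in 2#, against 105 with control RNA and 105 untreated. Other matrix proteins lay lower, THBS1, thrombospondin, at -0.70 and TGFBI at -0.66, beside CCN1 and CCN2. The 9 kept genes of neuronal filaments and keratins had a median of -0.38, with none 1.5-fold apart. KRT18, a keratin of simple epithelia, had 12269 in 1# and 16965 in 2#, against 17367 with control RNA and 18466 untreated, and KRT8, its partner, had 8931 in 1# and 11862 in 2#, against 11034 with control RNA and 11586 untreated. NEFL, the light neurofilament chain, had 2504 in 1# and 3633 in 2#, against 3157 with control RNA and 3446 untreated. In these 3 genes 1# stood below the other 3 arrays. VIM, vimentin, was the other way round, at 8792 in 1# and 7094 in 2#, against 5965 with control RNA and 6322 untreated.

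The listed interferon-stimulated genes as a group hardly differed, although IFI44L was among the 20 highest genes. IFI44L, an interferon-induced gene, had 460.0 in 1# and 166 in 2#, against 105 in the control RNA array and 102 in untreated cells. IFIT2, whose protein binds viral RNA, had 288 in 1# and 190.2 in 2#, against 119.8 with control RNA and 128 untreated. These 2 were the only ones of 33 kept effectors at least 1.5-fold higher, against 1.21% of all genes, the effector median was 0.04 and that of 21 sensors and signalling genes 0.06. A second, dimmer probe of IFI44L differed by 0.23. The list is not complete: GBP2 and CXCL10, which are not in it, were also at least 1.5-fold higher in 1#. Of the NF-kB list, CXCL8, the chemokine interleukin-8, had 382 in 1# and 195 in 2#, against 181 with control RNA and 196 untreated, with 2# at the control level, and NFKBIA, the inhibitor of NF-kB, had 9042 in 1# and 6313 in 2#, against 3969.7 with control RNA and 3739 untreated. Genes of the RNA interference machinery differed by a median of 0.04 over 16, with none 1.5-fold apart.

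Over the 50 lists, 38 medians lay within 0.1 of 0, while 5 stood above that and 7 below. Families formed only by the letters of the symbol, 229 with at least 8 kept genes, ran from -0.21 to 0.28. The highest were the genes whose symbols begin with TP before a digit, led by TP53INP2 at 0.72, TP53INP1 at 0.62 and TP53BP2 at 0.49. CDKN genes followed at 0.24 over 9, PARP genes at 0.21 over 11, with PARP6 at 0.42, THAP genes at 0.21 over 8 and PHF genes at 0.17 over 15. PARP enzymes attach ADP-ribose to proteins, and the THAP and PHF symbols stand for a zinc finger and a plant homeodomain finger. The lowest were PSMB genes, proteasome core subunits, at -0.21 over 8, led by PSMB10 with 1676 in 1# and 2610.4 in 2#, against 3507 with control RNA and 3224 in untreated cells. Next came MRPS genes at -0.19 over 28, PDCD genes at -0.19 over 8, EMC genes at -0.18 over 9, POLR genes at -0.18 over 28 and PEX genes at -0.17 over 13. EMC and PEX genes encode the membrane protein insertase of the endoplasmic reticulum and the peroxisome import machinery. Apart from PSMB10, TP53INP2, TP53INP1, CDKN1B and the histones, no member of these leading families was 1.5-fold apart. The 367 numbered ZNF genes, zinc finger factors, had a median of 0.06, with 3 genes 1.5-fold higher and 0 lower, a share no larger than the 1.21% of all genes. ZNF503 had 2032 in 1# and 1047 in 2#, against 434 with control RNA and 501 untreated, and ZNF467 had 778 in 1# and 345 in 2#, against 142 with control RNA and 153 untreated.

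**Figure D5:**
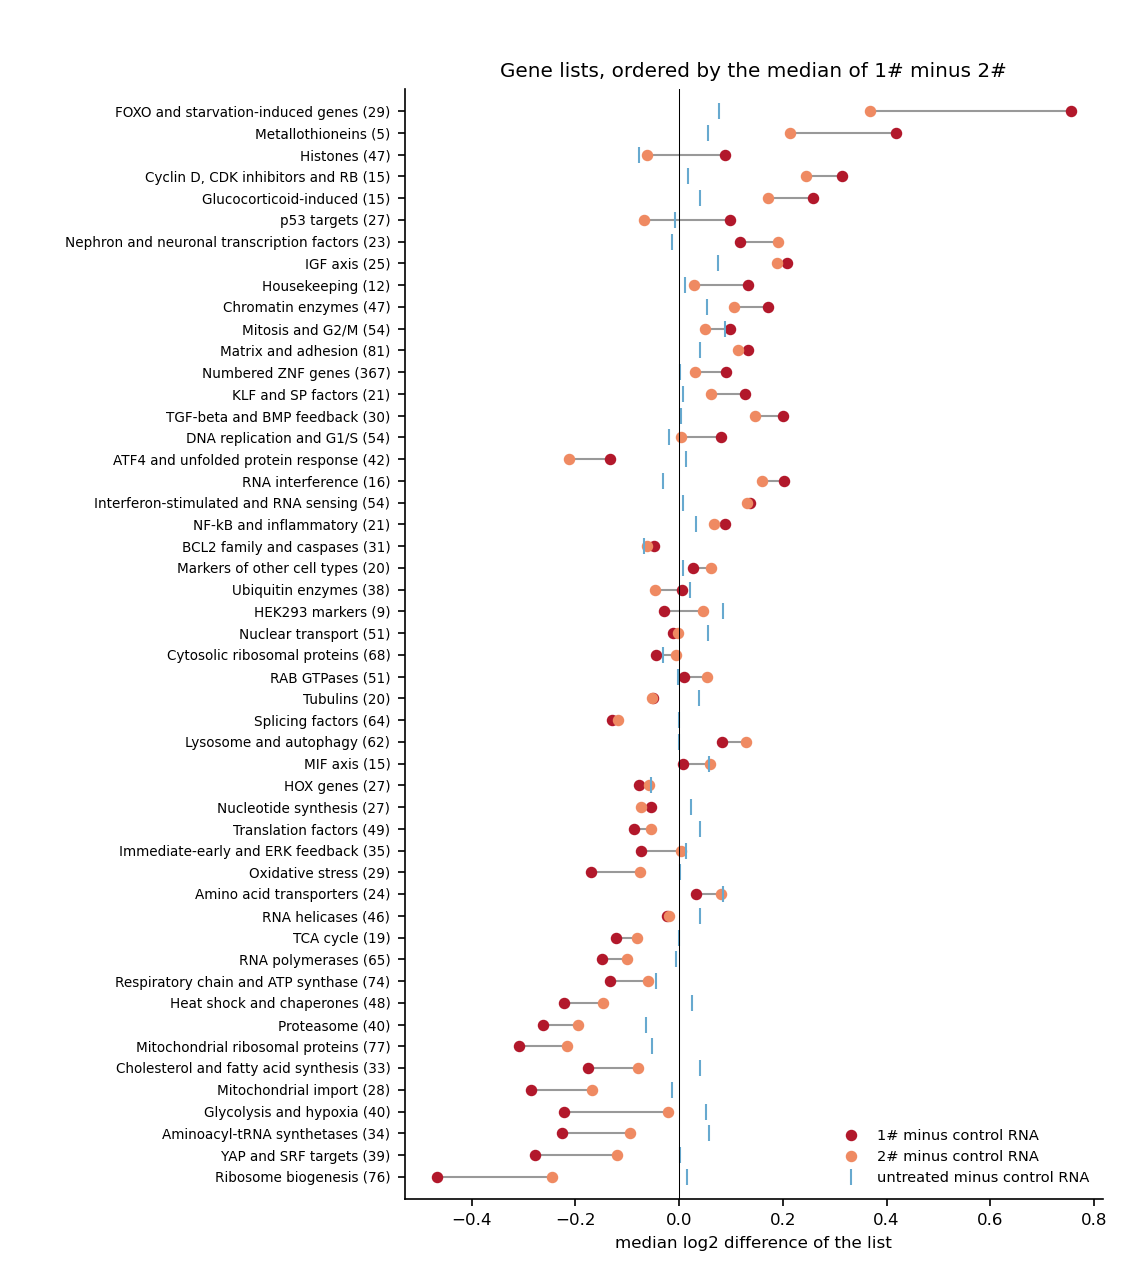
Median log2 difference from control RNA of the 50 gene lists in 1# (red) and 2# (orange), joined by a line, with untreated minus control RNA as a tick, ordered from the highest to the lowest median of 1# minus 2#. The number of kept genes is in brackets. FOXO and starvation-induced genes show the widest gap on the right with both siRNA arrays above control RNA, ribosome biogenesis the widest on the left with both below.

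Of 10 HEK293 markers on the array 9 were kept, and PAX2 was below the bound in all 4 arrays. The summed signal of the 10 was 34019 in 1# and 40964 in 2#, against 39002 in the control RNA array and 41399 without treatment, most of it from KRT18, KRT8 and VIM. Markers of fibroblasts summed to 1312 in 1# and 1173 in 2#, against 1213 with control RNA and 1205 untreated, over 9 genes, of which 6 were kept. COL3A1 alone was 1.5-fold higher in 1#, and COL1A1 differed by -0.39. Markers of blood, endothelial, hepatic and other epithelial cells summed to values within 1.5-fold of each other over the 4 arrays. The upper quartile of the deposited signals before normalization was 156 in 1# and 148 in 2#, against 134 in the control RNA array and 127 without treatment, and its part in the differences was not tested. A second kept probe was at hand for 52 of the separating genes. Of their 65 other probes 56 differed in the same direction and 14 by at least 1.5-fold. Among the 22 with a mean signal of at least 200 these counts were 21 and 13.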

How the data were processed

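Total RNA of HEK293 cells was amplified and labelled with the Illumina TotalPrep kit and read on Human-6 bead arrays, per the labels' protocols. The authors deposited 1 linear intensity per probe and array, made with BeadStudio per the submitters' processing notes, with no version and no genome build given in the sources used here. No detection p-values were used. Median signals lay between 71.9 and 78.5, and 0 values fell below the floor of 32, so background is still in the signal and shrinks folds of dim genes. The arrays were quantile normalized together and log2 transformed (Python 3.11.15, numpy 2.4.6, pandas 2.3.3), and the probe with the highest mean signal stood for its gene. Of 48701 probes 23687 had 1 gene in the platform annotation, 35 several and 24979 were unlisted, and 23651 symbols were updated through RefSeq (GRCh38.p14). The deposited series value table, also intensities, with a median of 73.8 in every array and its normalization unstated, served as an alternative. Its identifiers stand 1 row off from row 19832, shown by 35 ribosomal protein probes whose median in control RNA was 7104 under the sample tables' names and 99.3 under its own, so it was matched by position. With 1 array per condition, which limits the precision, no test was made. On simulated data the 1.5-fold bound recovered 99 of 100 raised, 96 of 100 lowered and 0 of 13555 unchanged genes. The simulation changed genes by exactly 2-fold and added noise of a chosen size. Its counts check the counting steps and give no error rate for these arrays. The text names MIF, the 20 highest and 20 lowest genes, the 6 largest on each side class, and up to 4 and 2 members of a list. Other names were chosen after their values were seen. Arrays, members and lists were chosen with earlier results of these data known. Promoters are the first start window of each gene in the RefSeq table, and genes not in it were passed over. Alternatives were median scaling, the value table, floors of 16 and 64, no filter or one at percentile 75, the mean of all probes, normexp (R 4.3.3, limma 3.58.1, offset 50) and a 2-fold bound.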

Additional observations from a re-analysis of the deposited data

Results flagged for a closer look

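In 9 genes the siRNA arrays stood on opposite sides of the control range, 6 of them the largest such differences of 1# minus 2# and 3 chosen after the values were seen because both arrays lay at least 0.3 log2 units outside it. None of these differences was tested, since each condition has 1 array. The log2 difference was 1.22 for H4C8, 0.90 for H2AC6, 0.90 for H2BC12, 0.88 for H2BC11 and 0.88 for H2BC8. In these histone genes 2# stood -0.01 to -0.08 log2 units from the lower control array, so the separation lies almost wholly in 1#. GLB1L2, a relative of lysosomal beta-galactosidase, differed by -0.95, with 1464 in 1# and 2824 in 2#, against 2313 in the control RNA array and 2742 in untreated cells, and here too 2# was near a control.

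The other 3 had both arrays away from the controls by their brightest probes. CLK1, a kinase of splicing factors, differed by 0.83, with 1417 in 1# and 799 in 2#, against 1124 with control RNA and 1134 in untreated cells. SLC25A23, a mitochondrial ATP-Mg carrier, differed by -0.72, with 2523 in 1# and 4164 in 2#, against 3265 with control RNA and 3178 untreated. COL12A1, a fibril-associated collagen, differed by -0.65, with 452 in 1# and 711 in 2#, against 571 with control RNA and 575 untreated. In each of these the control pair was close together. Dim second probes did not repeat the pattern for CLK1 and COL12A1. That of CLK1 differed by 0.18, with 1# and 2# both below the controls, and that of COL12A1 by 0.09.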

How the results depend on the processing

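Of 337 named genes and 50 lists, no gene past 1.5-fold and no list median past 0.1 changed sign under the 8 other settings of normalization, source, floor, filter, probe choice and background. Of 2678 gene values 2645 moved by less than 1 SD of probes of a gene (0.17), and the 40 outermost genes stayed past 1.5-fold in 313 of 318. Of 400 list values 361 moved by less than 0.04, the SD of the list medians between the control arrays. Scaling arrays to one median put the median of all genes at 0.04, called 259 genes higher and 84 lower, of which 165 and 80 were shared with the quantile counts, and gave 0.35 for the FOXO list, -0.12 for the YAP and SRF list, -0.12 for the aminoacyl-tRNA synthetases and 0.21 for the histones. Filtering at percentile 75 gave 0.36 for the FOXO list and 0.24 for the histones, no filter gave 0.12 for the histones, and the mean of all probes gave 0.20 for the FOXO list. The causes were not tested, other than that filters change which genes count. A 2-fold bound left 25 higher and 7 lower genes, 31 of them with 1# farther out. No paired analysis was possible because each condition has 1 array and no test was made. The missing replicates, the unstated dose and sequence behind 1#, background in dim signals and paralog probes of histones limit every difference.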

Other observations

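Several pairs of related genes, picked after their values were seen, both stood at least 1.5-fold apart between the arrays in one direction. RAB9A, a GTPase of transport from endosomes to the Golgi, had 7777 in 1# and 4571 in 2#, against 3933 in the control RNA array and 3678 in untreated cells. Its paralog RAB9B had 593 in 1# and 359 in 2#, against 326 with control RNA and 338 untreated. For both, 2# was at most slightly above the controls, and the median of all 51 kept RAB genes was 0.01. The glutathione transferases GSTA1 and GSTA2 differed by 1.02 and 1.12, and being near-identical in sequence their probes may share signal. The developmental factors EBF1 and EBF2 differed by 0.73 and 0.61, and TSHZ1 and TSHZ2, zinc finger factors, by 0.59 and 0.61. EBF1 was dim, at 72.5 in both control arrays. EBF2 had 111 in 1# and 72.9 in 2#, against 66.2 with control RNA and 71.7 untreated. Only its 1# signal was above the bound for kept genes. CXCL12, the chemokine ligand of CXCR4, differed by 0.95, with 264 in 1# and 136 in 2#, against 86.6 with control RNA and 92.6 untreated.

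TFRC, the transferrin receptor, stood out among 12 reference genes, with 4782 in 1# and 2921 in 2#, against 2601 with control RNA and 2704 in untreated cells. It was the 1 reference gene at least 1.5-fold apart, against 2.14% of all genes. The median of the 12 was 0.08 and the lowest stood at -0.33, while HPRT1, PPIA and GAPDH differed by 0.02, -0.03 and -0.03. Of 13 purine synthesis genes PFAS and APRT were at least 1.5-fold lower in 1#, against 0.931% of all genes. PFAS had 870.1 in 1# and 1421 in 2#, against 1962 with control RNA and 2135 untreated, in graded order. APRT, a salvage enzyme, had 4591 in 1# and 7177 in 2#, against 7456 with control RNA and 7649 untreated, with 2# near the controls.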
